A study of Mus musculus with 38 samples.

Results

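The 12 spleens with the most and the 12 spleens with the least signal for Hemgn (hemogen, a nuclear protein of blood-forming cells that is abundant in red cell precursors) were compared, out of 38 arrays in all. The members were chosen by ranking all 38 arrays on the deposited intensity of 1 Hemgn probe, ILMN_1239447, so Hemgn itself is described here and not tested. The high Hemgn arrays, from highest to lowest, were those of BXD12, BXD24, BXD32, BXD33, BXD16, BXD45, BXD34, BXD87, BXD61, BXD11, BXD69 and BXD62. The low Hemgn arrays, in the same order, were those of BXD73, BXD36, BXD83, BXD66, BXD6, BXD42, BXD29, BXD98, BXD75, BXD19, BXD68 and BXD48. The 14 arrays between the groups were used as a separate set, because their values played no part in the contrast.

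BXD strains are recombinant inbred mouse lines, each fixed for a different mixture of the C57BL/6 and DBA/2 genomes, so that strains differ in the parental allele at each locus. Spleens of mice aged 8 to 12 weeks, which the labels call controls, were profiled, with 1 Illumina Mouse-6 v1.1 array per strain. Each array's RNA is described as that of 2 mice of one sex mixed in equal parts. BXD32, BXD65 and BXD75 nevertheless carried signals of both sexes, as given below. All 24 arrays of the high and low groups are labelled male, and the strain is the replicate (n = 12 each unless stated). A p-value therefore measures the spread between strains, which holds genetic, environmental and technical differences that cannot be told apart.

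In adult mice the spleen keeps making red cells alongside the bone marrow, in the red pulp, and this output can expand after blood loss or haemolysis. Red cell precursors are driven by erythropoietin and by the transcription factors GATA1, TAL1 and KLF1, divide several times while they load iron and make haem, and then build the specialised membrane skeleton and lose their nucleus. The white pulp beside it holds the B and T lymphocytes that the study phenotyped by flow cytometry.

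Hemgn intensity ran from 1930 to 4495 in the high group, with a median of 2607, against 143 to 749 in the low group, with a median of 593. On the normalized log2 scale the lowest, median and highest values were 10.63, 11.27 and 12.23 in the high group, against 6.80, 8.90 and 9.82 in the low group. The SD was 0.49 in the high group and 0.98 in the low group. The last array inside the high group, BXD62, had an intensity of 1930, and the first outside it, BXD70, had 1895. The last array inside the low group, BXD73, had 749, and the first outside it, BXD65, had 756. Neither edge of the ranking therefore marks a break in the values, whereas the low tail fell away to BXD68 at 219.5 and BXD48 at 143. A second probe for Hemgn stayed between 4.60 and 4.96 in all 38 arrays, was not kept as detected and gave no information.

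**Figure D1:**
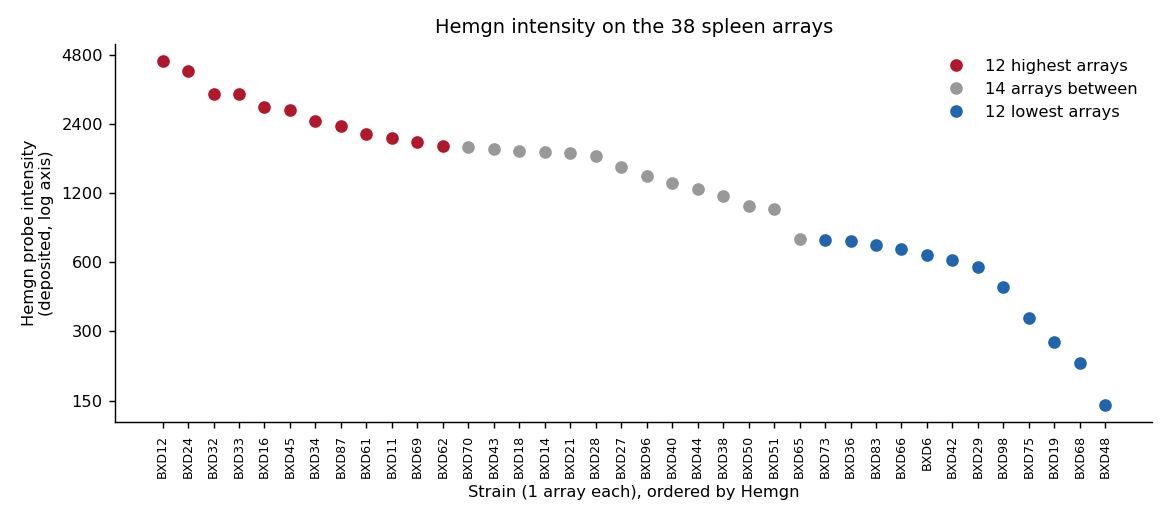
Deposited intensity of the Hemgn probe (log axis) on each of the 38 arrays, ordered from highest to lowest, with the 12 high, 14 intermediate and 12 low arrays in different colours. The values decline without a gap at either edge, from 4495 in BXD12 to 143 in BXD48.

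Sex-linked probes went against the label on several arrays. Xist, the RNA of the inactive X chromosome of females, lay between 4.84 and 5.67 (log2 intensity) on 31 arrays labelled male, which all carried the Y-linked Eif2s3y at 8.24 to 9.42. BXD32 of the high group had Xist at 9.23 together with Eif2s3y at 8.74, BXD75 of the low group had 8.34 together with 9.14, and BXD65 of the intermediate set had 9.11 together with 8.13, although all 3 are labelled male. BXD70, labelled male, had Xist at 11.6 and Eif2s3y at 4.62, and BXD18 and BXD38, labelled female, had Xist at 5.19 and 5.50 and Eif2s3y at 9.13 and 9.31. BXD96 carried the signal of its female label. Results on the high and low groups are therefore also given without BXD32 and BXD75, and the counts and slopes of the main genes and lists on the intermediate arrays also without BXD18, BXD38, BXD65, BXD70 and BXD96. Arrays had 13791 to 15732 detected probes, and the median deposited intensity lay between 90.6 and 120.3 in the high group and between 85.0 and 115.1 in the low group.

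Of 11166 genes tested, 1059 were higher in the high Hemgn group (9.48%) and 599 were lower (5.36%) at an adjusted p under 0.05, with 1 probe per gene. The 2 directions differed in size. Counted over probes, 241 of 1369 higher calls were more than 2-fold higher and 4 of 845 lower calls more than 2-fold lower. For 216 genes (1.93%) every high array lay above every low array, and for 3 genes (0.0269%) every high array lay below every low array. The median difference over all genes was -0.02 on the log2 scale. The gene counts include genes detected on 0 low arrays, such as Erfe and Pklr. With only the probes detected on every array, 1150 probes were higher and 968 were lower. Over the 17582 probes tested, 1369 were higher (7.79%) and 845 were lower (4.81%), and without BXD32 and BXD75 these counts were 1136 and 459. The counts of list members below are read against these shares, and since Hemgn of the same arrays set the groups, a call says only that a signal went with Hemgn.

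Klf1 and Uros were given as markers with the label of high erythropoiesis, so their values describe it and are no independent check. Klf1, the erythroid Krüppel-like transcription factor, had a lowest, median and highest log2 intensity of 11.70, 12.76 and 13.48 in the high group, against 8.12, 10.69 and 11.84 in the low group. It was 4.61-fold higher (log2 difference 2.21 ± 0.32 SE, adjusted p = 1.3e-05), and only the edges of the groups overlapped. Uros, uroporphyrinogen III synthase of the haem pathway, had 9.92, 10.28 and 10.90 in the high group, against 8.35, 8.82 and 9.31 in the low group. It was 2.72-fold higher (1.45 ± 0.12 SE, adjusted p = 2.1e-08) with no overlap. When the 38 arrays were instead ranked by the mean of Klf1 and Uros, 10 of the 12 highest and 9 of the 12 lowest arrays were the same. Hemgn then had a mean of 11.42 ± 0.45 in the arrays ranked high, against 8.70 ± 0.998 in those ranked low (SD), a difference of 2.73 that is given as a description, since most arrays are shared. Whether a high group holds more red cell precursors or more of these RNAs per precursor cannot be told apart in RNA of a whole spleen.

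Among erythroid transcription factors, 9 of the 13 genes measured (of 15 listed) were higher and 0 were lower, with a median difference of 0.80 against -0.02 over all genes. Gata1, the X-linked master factor of the lineage, had 8.30, 8.80 and 9.61 in the high group, against 6.43, 6.99 and 7.83 in the low group, so that the groups did not overlap (1.78 ± 0.18 SE, adjusted p = 1.4e-07). Tal1, its helix-loop-helix partner, had 13.19, 13.61 and 14.03 against 10.37, 11.72 and 12.60 in the low group, again with no overlap (1.80 ± 0.19 SE, adjusted p = 2.8e-07). The repressor Gfi1b was higher by 2.05 ± 0.26 and the leucine zipper factor Nfe2 by 1.79 ± 0.26 (SE). E2f2, Sox6, Foxo3 and Lmo2 were higher by 0.93, 0.80, 0.57 and 0.23. The other 4 did not pass the test, among them Gata2 and Myb, which also act in earlier progenitors. Gata2 had a median of 8.71 in the high group and 8.87 in the low group (adjusted p = 0.19), and Myb had 5.49 and 5.22 (adjusted p = 0.23).

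The haem pathway had 10 of 11 measured genes (of 14 listed) higher and 0 lower, with a median difference of 1.08. Urod, the next enzyme after Uros, had 13.83, 14.07 and 14.59 in the high group, against 12.36, 12.92 and 13.38 in the low group, with no overlap (1.24 ± 0.12 SE, adjusted p = 8.7e-08). Fech, ferrochelatase, which inserts the iron, was higher by 1.47 ± 0.18 with no overlap, and Abcb10, a mitochondrial transporter needed for haem synthesis, by 1.58 ± 0.25 (SE). Alas2, the erythroid form of the first enzyme, had 13.73, 14.55 and 15.00 against 12.61, 13.67 and 14.45 in the low group and was 1.82-fold higher (0.87 ± 0.18 SE, adjusted p = 0.0017). The form used by all tissues, Alas1, had a median of 12.07 in both groups (adjusted p = 0.99).

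Iron uptake was divided. The 4 of 12 measured genes that were higher were those of entry into the precursor and its mitochondria: Tfrc (transferrin receptor), Tfr2 (transferrin receptor 2), Slc25a37 (mitoferrin 1) and Slc11a2 (divalent metal transporter 1). Tfrc had 12.53, 13 and 13.70 in the high group, against 10.52, 11.28 and 12.38 in the low group, with no overlap (1.67 ± 0.18 SE, adjusted p = 2.2e-07). Tfr2 was higher by 1.83 ± 0.21 and was detected on 12 high and 8 low arrays. Slc25a37 was higher by 1.34 ± 0.17 on its brightest probe and by 0.47 ± 0.84 (adjusted p = 0.79) on a dimmer one. The ferritin genes, ferroportin and the iron regulatory genes did not pass the test, and the list's median difference was 0.13.

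The membrane and skeleton list had the highest median difference of the 20 lists, with 15 of 16 measured genes (of 20 listed) higher, 0 lower and a median of 1.97, and 13 genes had no overlap between the groups. Kel, the Kell blood group protein, had 10.72, 11.51 and 12.09 in the high group, against 6.95, 8.83 and 10.27 in the low group, which is 5.75-fold higher (2.52 ± 0.29 SE, adjusted p = 6.9e-07). Ank1, ankyrin 1, which ties the skeleton to the membrane, had 9.60, 10.40 and 10.88 against 6.04, 7.82 and 9.06 in the low group (2.41 ± 0.26 SE). A second, dimmer Ank1 probe gave 0.25 ± 0.14 (adjusted p = 0.30). Icam4, the Landsteiner-Wiener blood group protein, was higher by 2.44 ± 0.26 on one probe and by 0.81 ± 0.15 on the other. Dmtn (dematin), Rhag (the Rh-associated glycoprotein), Ermap (the Scianna blood group protein) and Tmod1 (tropomodulin 1) were higher by 2.43, 2.38, 2.32 and 2.28, all with no overlap. Slc4a1, the band 3 anion exchanger, had 14.59, 15.31 and 15.62 in the high group, against 11.76, 13.62 and 14.38 in the low group, and lay near the top of the scale at 15.94 (1.80 ± 0.24 SE). The 1 gene of the list that did not pass was the glucose transporter Slc2a1, with a median of 10.52 in the high group and 10.81 in the low group (adjusted p = 0.051).

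Of 18 measured red cell enzymes and maturation genes, 16 were higher and 0 were lower, with a median difference of 1.02. Trim10, a RING finger protein of terminal erythroid differentiation, had 9.06, 9.82 and 10.63 in the high group, against 6.22, 7.20 and 8.61 in the low group (2.45 ± 0.24 SE, adjusted p = 1.0e-07). The carbonic anhydrases Car2 and Car1 were higher by 2.18 ± 0.22 and 1.59 ± 0.25, and the sphingosine 1-phosphate exporter Mfsd2b by 1.42 ± 0.20 (SE). The peroxide-reducing enzyme Prdx2 was higher by 1.15. Pklr, the red cell pyruvate kinase, was detected on 9 high arrays and 0 low arrays, so no fold is given for it. Bnip3l, a mitophagy receptor used when reticulocytes clear their mitochondria, was higher by 0.43. Catalase (Cat) and Map1lc3b did not pass the test.

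Globin RNA could not be ranked with these genes. Hba-a1, alpha globin, lay between 15.77 and 15.94 in the high group and between 15.81 and 15.94 in the low group, at the top of the scale, so that its difference of 0.00 gives no information on globin output. Hbb-b2, a beta globin, fell into separate levels across strains with a gap between 11.84 and 13.94. It was at the upper level in 8 of 12 high arrays, 4 of 14 intermediate arrays and 3 of 12 low arrays, and the difference of 2.39 ± 0.81 (SE) did not pass (adjusted p = 0.051). This call depended on the setting: Hbb-b2 passed in 10 of 18 alternatives, with adjusted p-values from 0.0036 (arrays ranked by Klf1 and Uros) to 0.92 (arrays of low pancreas signal). A difference between the parental alleles in the sequence under the probe and a difference in expression cannot be told apart for such a probe.

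Of the 8 measured genes of erythropoietin and kit signalling, 3 were higher. Epor, the erythropoietin receptor, had 8.29, 8.80 and 9.20 in the high group, against 5.68, 6.995 and 7.89 in the low group, with no overlap (1.72 ± 0.20 SE, adjusted p = 7.0e-07). The survival gene Bcl2l1 was higher by 0.86 ± 0.18 and the kinase Pim1 by 0.70 ± 0.21 (SE, adjusted p = 0.028), and Pim1 did not pass in 6 of 17 alternatives, among them that without BXD32 and BXD75. Kit, the stem cell factor receptor of earlier progenitors, had a median of 9.10 in the high group and 9.14 in the low group (adjusted p = 0.997). Of the 4 measured genes of stress erythropoiesis, Erfe, the erythroblast hormone erythroferrone, was detected on 5 of 12 high arrays and on 0 of 12 low arrays, with a highest value of 6.93 in the high group and 5.11 in the low group. It passed the filter through the group where it is high, so no test is given for it. Among the other 3, Bmpr1a, a receptor for bone morphogenetic proteins, was lower by a small amount (-0.18 ± 0.06 SE, adjusted p = 0.041), a call that was lost in 6 of 18 alternatives (adjusted p from 0.0040 to 0.85), and its ligand gene Bmp4 had a median of 7.71 in the high group and 7.82 in the low group.

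Cell cycle and replication genes were higher with them. Of 33 measured genes (of 41 listed), 31 were higher and 0 were lower, with a median difference of 1.11 and no overlap between groups for 18. Birc5, the mitotic protein survivin, had 11.06, 11.50 and 12.11 in the high group, against 8.89, 9.83 and 10.47 in the low group (1.75 ± 0.16 SE, adjusted p = 8.6e-08). The G1 cyclin Ccne1 was higher by 1.71 ± 0.18, the ribonucleotide reductase subunit Rrm2 by 1.62 ± 0.16 and the replication licensing factor Cdc6 by 1.57 ± 0.17 (SE). The 2 genes that did not pass were Pcna (0.37, adjusted p = 0.098) and Bub1 (-0.03). These genes are used by every dividing cell, and which cells carried them was not tested. Of the members counted above, 2 cell cycle genes and 1 enzyme gene were detected on 0 low arrays, and without them 29 of 31 cell cycle genes and 15 of 17 enzymes were higher. Without BXD32 and BXD75 the counts of higher genes were 9 of 13 erythroid transcription factors, 10 of 11 haem genes, 15 of 16 membrane genes, 15 of 18 enzymes and 30 of 33 cell cycle genes.

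**Figure D2:**
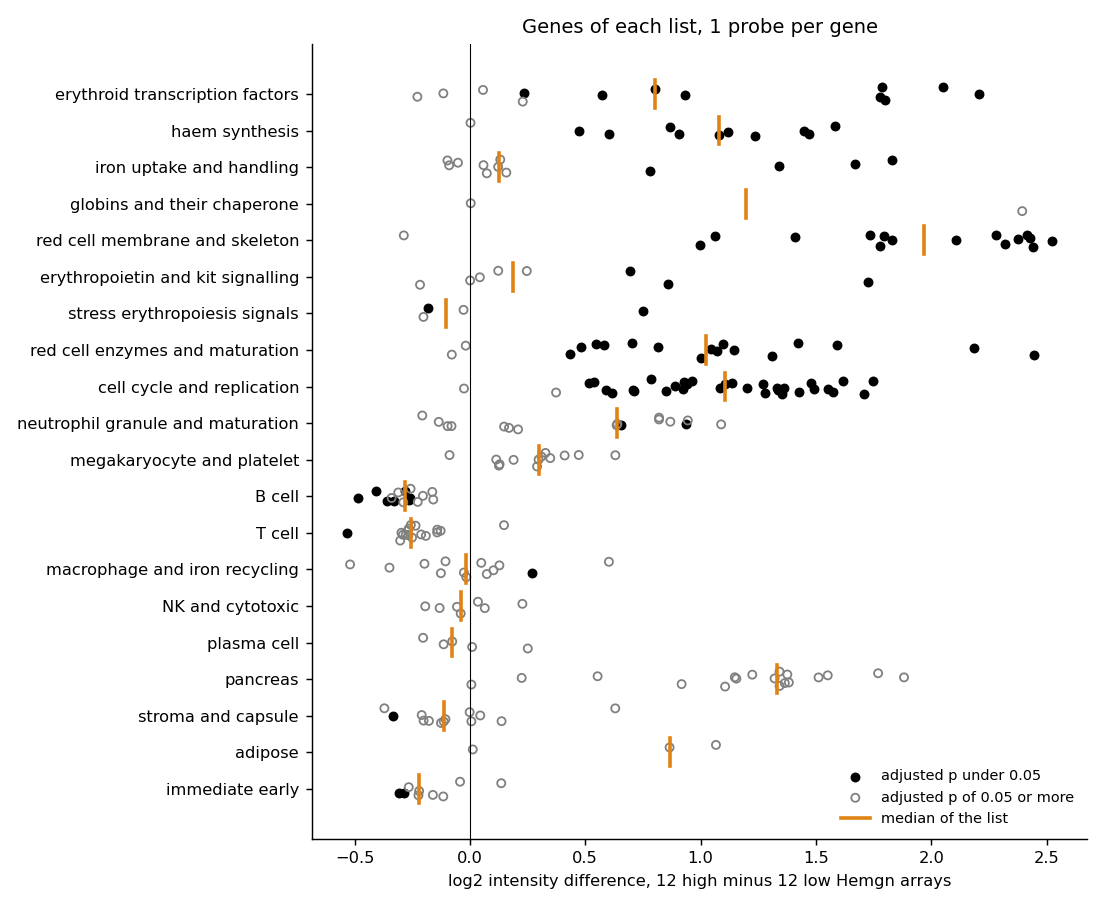
Each point is 1 gene (1 probe per gene) of the 20 gene lists, placed by its log2 intensity difference between the 12 high and the 12 low Hemgn arrays, filled where the adjusted p was under 0.05, with the median of each list as a bar. The membrane, haem, enzyme and cell cycle lists lie to the right with medians of 1.97, 1.08, 1.02 and 1.11, and the B and T cell lists lie just left of 0 with medians of -0.28 and -0.26. Filled points include members detected on 0 low arrays, such as Erfe and Pklr.

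The promoters of Hemgn and of 4 genes that went with it are shown to let the letters near their starts be compared. They are RefSeq windows of assembly GRCm38.p6, from 250 bases before to 50 after each annotated start, read 5′ to 3′ on the strand of the gene. Capitals mark AGATAA or TGATAA, letters that GATA factors can bind, and CCNCNCCC, letters of the kind that KLF1 can bind, each searched on both strands, where overlapping matches run together.
Hemgn, chr4:46404134-46404433, minus strand: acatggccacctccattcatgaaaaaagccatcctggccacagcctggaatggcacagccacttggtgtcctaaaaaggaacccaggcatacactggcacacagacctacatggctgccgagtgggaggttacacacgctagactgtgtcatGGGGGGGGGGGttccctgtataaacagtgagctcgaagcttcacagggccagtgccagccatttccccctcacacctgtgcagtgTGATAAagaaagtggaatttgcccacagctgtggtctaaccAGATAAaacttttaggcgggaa
Klf1, chr8:84901732-84902031, plus strand: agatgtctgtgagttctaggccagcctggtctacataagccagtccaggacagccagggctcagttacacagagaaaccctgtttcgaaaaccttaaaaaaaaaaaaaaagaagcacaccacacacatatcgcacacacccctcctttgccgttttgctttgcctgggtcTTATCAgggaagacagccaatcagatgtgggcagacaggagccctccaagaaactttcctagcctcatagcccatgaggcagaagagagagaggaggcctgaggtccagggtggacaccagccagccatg
Uros, outer start, chr7:133709246-133709545, minus strand: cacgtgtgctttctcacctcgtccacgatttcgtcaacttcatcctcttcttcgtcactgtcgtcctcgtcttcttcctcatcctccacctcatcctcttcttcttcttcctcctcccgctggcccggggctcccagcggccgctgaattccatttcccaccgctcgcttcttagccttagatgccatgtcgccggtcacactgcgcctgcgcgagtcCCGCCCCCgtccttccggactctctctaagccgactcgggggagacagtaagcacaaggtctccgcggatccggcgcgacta
Uros, inner start, chr7:133702451-133702750, minus strand: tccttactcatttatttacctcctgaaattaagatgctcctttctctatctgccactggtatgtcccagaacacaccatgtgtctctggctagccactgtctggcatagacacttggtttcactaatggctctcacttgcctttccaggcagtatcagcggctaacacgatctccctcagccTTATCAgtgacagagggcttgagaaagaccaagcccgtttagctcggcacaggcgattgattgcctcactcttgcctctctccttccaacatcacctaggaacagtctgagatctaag
Kel, chr6:41704276-41704575, minus strand: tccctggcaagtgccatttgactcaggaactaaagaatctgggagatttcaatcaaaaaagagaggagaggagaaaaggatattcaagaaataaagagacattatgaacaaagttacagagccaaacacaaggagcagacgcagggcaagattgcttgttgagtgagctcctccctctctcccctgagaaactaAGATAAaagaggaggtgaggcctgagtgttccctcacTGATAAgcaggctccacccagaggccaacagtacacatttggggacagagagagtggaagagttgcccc
Epor, chr9:21963527-21963826, minus strand: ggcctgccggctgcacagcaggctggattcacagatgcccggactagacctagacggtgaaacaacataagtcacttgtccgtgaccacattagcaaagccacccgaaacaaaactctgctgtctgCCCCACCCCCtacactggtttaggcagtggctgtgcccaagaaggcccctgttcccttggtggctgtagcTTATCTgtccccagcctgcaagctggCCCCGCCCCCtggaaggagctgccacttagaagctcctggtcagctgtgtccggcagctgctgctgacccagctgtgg

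The Hemgn window holds 1 AGATAA and 1 TGATAA, and its matches to CCNCNCCC all lie in 1 run of a single base. The Klf1 window holds 1 TGATAA, the Kel window 1 of each GATA motif and the Epor window 1 AGATAA with 4 matches to CCNCNCCC. Uros has a TGATAA in the window of its inner start and none in that of its outer start. A window was found for 43 of the 57 genes of the erythroid lists that were higher, and some genes have several windows. AGATAA or TGATAA was present in 17 of those 61 windows (27.9%), against 1380 of 11522 windows of all genes tested (12%) and 18.6% of all windows in the table. Over all 1059 higher genes the share was 145 of 1114 windows (13%), near that of all genes tested, and over the 599 lower genes 63 of 657 (9.59%). For the higher genes of the cell cycle list the share was 3 of 28 windows (10.7%). CCNCNCCC was present in 70.5% of the erythroid windows, 60.7% of the cell cycle windows and 65.1% of the windows of all genes tested. It was present in 65.1% of the windows of all higher genes and in 71.4% of those of the lower genes. A match describes the letters of the window and not a bound site.

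The 10 genes with the largest positive differences were Ypel4, Kel, Trim10, Icam4, Dmtn, Ank1, Rhag, Abcg4, Slc43a1 and Ermap, and none of them overlapped between the groups. Of these, 3 belong to no list used here. Ypel4, of the yippee-like family, had 7.82, 8.58 and 9.66 in the high group, against 4.60, 5.83 and 7.19 in the low group, which is 6.80-fold higher (2.76 ± 0.27 SE, adjusted p = 1.0e-07), and it was detected on 12 high and 8 low arrays. The sterol transporter Abcg4 was higher by 2.35 ± 0.26 and the amino acid transporter Slc43a1 by 2.33 ± 0.24 (SE).

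**Figure D3:**
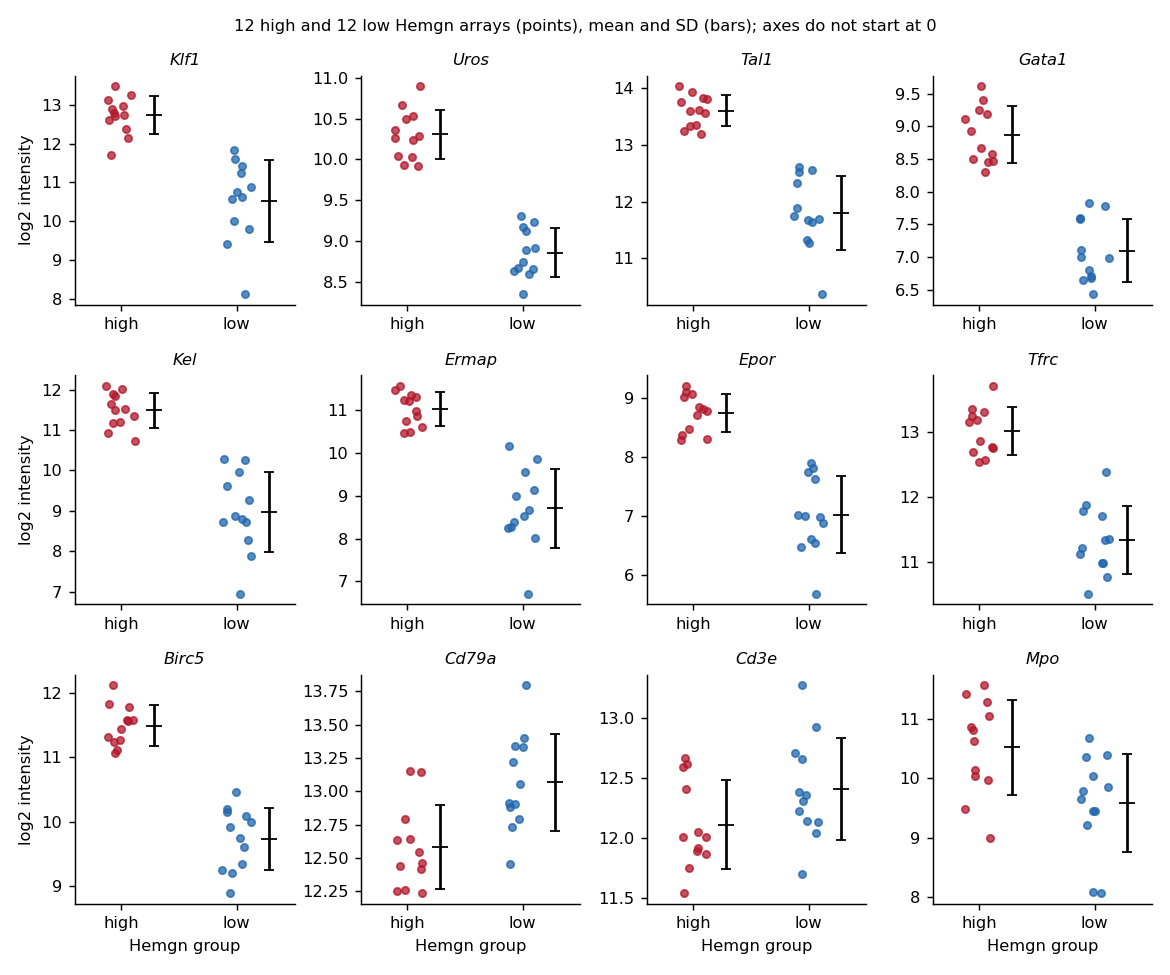
Normalized log2 intensity of 12 genes on each of the 12 high Hemgn arrays (left) and 12 low Hemgn arrays (right), with the mean and SD beside the points. Uros, Tal1, Gata1, Kel, Ermap, Epor, Tfrc and Birc5 separate the groups, Klf1 overlaps only at its edge, and Cd79a, Cd3e and Mpo overlap widely.

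Lymphocyte genes differed much less. All 15 measured B cell genes had a difference below 0, with a median of -0.28, and 7 were lower at the threshold. Cd79a, a signalling chain of the B cell receptor, had 12.23, 12.50 and 13.15 in the high group, against 12.45, 12.98 and 13.79 in the low group (-0.49 ± 0.14 SE, adjusted p = 0.017). Spib, a B cell transcription factor, had a difference of -0.41 ± 0.08 (SE, adjusted p = 9.1e-04) and Ms4a1, the CD20 antigen, one of -0.36 ± 0.08 (SE, adjusted p = 0.0015). Over 18 alternatives in processing or arrays, 0 to 9 of the 15 were lower. Without BXD32 and BXD75, 4 were, and Cd79a and Cd79b were no longer among them. The lower calls depended on the normalization between arrays: on deposited intensities with no normalization, 9 probes were lower in all and 0 of the B cell genes were. A rise in the share of erythroid RNA and a fall in lymphocyte RNA cannot be told apart on values made relative within an array.

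Of 17 measured T cell genes 1 was lower, a share near that of all genes (5.36%), and 16 had a difference below 0, with a median of -0.26. That gene was Il7r, the interleukin 7 receptor, with 8.00, 8.47 and 8.91 in the high group, against 8.47, 9.03 and 9.36 in the low group (-0.53 ± 0.12 SE, adjusted p = 0.0025). Cd3e, a chain of the T cell receptor complex, had 11.53, 12.01 and 12.66 against 11.70, 12.33 and 13.27 in the low group (adjusted p = 0.24). Of 7 measured NK genes and 5 measured plasma cell genes, 0 passed in either direction by limma, with 0 and 1 at an unadjusted p under 0.05 and medians of -0.04 and -0.08. Among 13 stroma genes 1 was lower, again a share near that of all genes. It was the follicular chemokine Cxcl13 (-0.33 ± 0.10 SE, adjusted p = 0.021). Of 9 immediate early genes, Zfp36 and Egr1 were lower by small amounts (-0.31 and -0.28), and did not pass in 4 and 5 of 18 alternatives. On the intermediate arrays 8 of the 9 had a positive slope on Hemgn, with a median of 0.09, and 0 passed by limma.

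Of 16 measured neutrophil genes, 2 were higher, a share near that of all genes (9.48%), and 12 of the 16 differences were above 0, with a list median of 0.64. They were Mpo, myeloperoxidase of immature granulocytes, with 8.99, 10.72 and 11.56 in the high group, against 8.06, 9.71 and 10.68 in the low group (0.93 ± 0.31 SE, adjusted p = 0.0497), and Fcnb, ficolin B (0.65 ± 0.22 SE, adjusted p = 0.049). Mpo did not pass in 12 of 18 alternatives and Fcnb in 13 of 17, among them that without BXD32 and BXD75. Among the 14 that did not pass, the differences were 1.09 for Ctsg, 0.87 for Elane, 0.82 for Ltf and Ngp, and 0.64 for Camp, with adjusted p-values of 0.069, 0.090, 0.11, 0.13 and 0.20. The lowest was -0.21 for Retnlg (adjusted p = 0.59). With the 19 highest against the 19 lowest arrays, 8 of the 16 were higher, with a median of 0.82, and over 18 settings the count ran from 0 to 8. Megakaryocytes, the source of platelets, also use Gata1, Tal1 and Gfi1b. Of 13 megakaryocyte and platelet genes 0 passed by limma, with 5 at an unadjusted p under 0.05, all 5 above 0. Their median difference was 0.30, and 12 of the 13 differences were above 0, from 0.11 for Thbs1 to 0.63 for the adhesion receptor Selp. The exception was Pf4, platelet factor 4, at -0.09 (adjusted p = 0.86). The intermediate arrays went the other way: 1 of the 13 had a positive slope on Hemgn, with a median slope of -0.27, and 0 passed by limma. Without the 5 arrays labelled female or against their label it was again 1 of 13, with a median of -0.28. Of 13 macrophage genes 1 was higher, again a share near that of all genes. It was Spic, the factor of red pulp macrophages that recycle iron (0.27 ± 0.09 SE, adjusted p = 0.046), which did not pass in 10 of 18 alternatives, among them that without BXD32 and BXD75. C1qa and Adgre1, general macrophage genes, did not pass.

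RNA of pancreas, which lies against the spleen, was present on many arrays in both groups. The mean log2 intensity of 18 pancreas genes had a lowest, median and highest value of 5.66, 12.8 and 14.8 in the high group, against 5.64, 10.5 and 15.2 in the low group. It reached 9 on 9 of 12 high arrays and on 6 of 12 low arrays. All 18 differences were above 0, with a median of 1.33, and 0 passed by limma, with 0 at an unadjusted p under 0.05. On the intermediate arrays all 18 slopes on Hemgn were positive, with a median of 2.21, and 0 had an unadjusted limma p under 0.05. Without the 5 arrays labelled female or against their label all 18 were again positive, with a median of 3.10. Of 3 measured adipose genes 0 passed, with 2 at an unadjusted p under 0.05 and a median of 0.87. The part of pancreas or adipose RNA in the results was not tested beyond the values that follow. With the pancreas mean as a covariate 1377 probes were higher and 763 lower, against 1369 and 845. Among the arrays with a mean under 9, which were 3 high and 6 low arrays, 344 probes were higher and 18 lower, and the test has few arrays. There, 9 of 16 membrane genes, 21 of 33 cell cycle genes, 5 of 18 enzymes, 4 of 11 haem genes and 1 of 13 erythroid transcription factors were higher, with list medians of 1.91, 0.86, 0.92, 0.92 and 0.70.

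The genes with the 10 largest negative differences came from none of the erythroid lists. They were Fggy, Pla2g2d, Lyz1, Kansl1l, Tmem68, Dusp4, Lamb3, Rnf144a, AF067063 and Ddr1, from -1.62 to -0.71, and 0 of them separated the groups. Of these, 3 lie on chromosome 4, the chromosome of Hemgn, and had separate levels across strains. That chromosome holds 663 of the 11166 genes tested and 42 of the 599 lower genes. Fggy, a carbohydrate kinase, was above a gap between 5.35 and 6.61 in 3 high, 8 intermediate and 9 low arrays (-1.62 ± 0.49 SE, adjusted p = 0.031). Pla2g2d, a secreted phospholipase, was above a gap between 6.49 and 7.70 in 3 high, 5 intermediate and 9 low arrays (-1.51 ± 0.40 SE, adjusted p = 0.012). Tmem68 was above a gap between 9.90 and 10.8 in 4 high, 6 intermediate and 10 low arrays (-0.93 ± 0.27 SE). On the intermediate arrays the slopes of Fggy, Pla2g2d and Tmem68 on Hemgn were -1.12, -0.52 and 0.51, and none passed by limma. Whether these genes are linked to Hemgn was not tested. Without BXD32 and BXD75, Fggy, Tmem68 and Ddr1 did not pass, and Tmem68 did not in 9 of 18 alternatives. As for Hbb-b2, an allele under the probe and a difference in expression cannot be told apart. Lyz1, a lysozyme, had 6.97, 8.10 and 9.42 in the high group, against 7.73, 9.07 and 10.29 in the low group (-1.13 ± 0.27 SE, adjusted p = 0.0060). A second probe of Rnf144a gave -0.16 ± 0.11 where the brighter one gave -0.76 ± 0.12 (SE).

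The 14 intermediate arrays, with Hemgn between 9.46 and 11.29, gave values the ranking had not set against each other. They lie between the groups on deposited intensity only, since on the normalized scale their range overlaps both groups. Ranked by normalized Hemgn, BXD28 would join the high group and BXD50 and BXD65 the low group. Over the 14 arrays the slope of each gene on Hemgn was fitted, as a log2 difference per 1 log2 unit of Hemgn. Of the genes tested, 93 had a positive slope (0.833%) and 30 a negative one (0.269%) at an adjusted p under 0.05. Of the 93, 88 were also higher in the high group, and of the 30, 2 were also lower, against 9.48% and 5.36% of all genes. Of the 1059 higher genes, 79.3% had a positive slope, against 40.8% of all genes, and of the 599 lower genes 75.6% had a negative slope, against 59.2% of all genes. At an unadjusted p under 0.05, 6.27% of genes had a positive and 12.5% a negative slope. Of the membrane list, 11 of 16 genes had a positive slope at the adjusted threshold and Slc2a1 a negative one, with a median slope of 0.72 against -0.05 over all genes. Of the cell cycle list, 10 of 33 did, with a median of 0.48. The slope was 0.99 for Kel (adjusted p = 8.3e-04), 0.80 for Tal1 (adjusted p = 8.7e-04), 0.69 for Epor (adjusted p = 0.0043), 1.01 for Klf1 (adjusted p = 0.037) and 0.56 for Uros (adjusted p = 0.023). Alas2 had a slope of 0.08 (adjusted p = 0.86). Of the B cell genes 14 and of the T cell genes 17 had a slope below 0, with medians of -0.16 and -0.37, and 0 of either list passed by limma, with 3 and 11 at an unadjusted p under 0.05.

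Single arrays moved the number of probes that passed in this set. With all 14 arrays 169 probes were called, and leaving out 1 array at a time gave 39 to 194. The count was 39 without BXD50, 69 without BXD28, 75 without BXD51 and 111 without BXD21. Without the 5 arrays that are labelled female or go against their label it was 91, with 9 arrays left. There, 36 genes had a positive and 24 a negative slope at the threshold, of which 33 were also higher and 1 was also lower between the extremes. Over all genes, 9.48% were higher and 5.36% were lower between the extremes. Of the higher genes 72.1% had a positive slope, against 39.5% of all genes, and of the lower genes 76.3% had a negative one, against 60.5%. Positive slopes passed for 8 of 16 membrane genes and 4 of 33 cell cycle genes, with median slopes of 0.72 and 0.47, no membrane gene had a negative slope that passed, and 1 T cell gene had a negative slope that passed. Kel and Tal1 had slopes of 0.96 (adjusted p = 0.022) and 0.70 (adjusted p = 0.030). The slopes of Epor (0.68), Klf1 (0.65) and Uros (0.56) no longer passed, with adjusted p-values of 0.054, 0.090 and 0.056. The 5 genes most like Hemgn over the 14 arrays were Ank1, Aqp1 (the water channel aquaporin 1), Tspan33 (a tetraspanin of red cell precursors), Kel and Tal1, with Pearson's r of 0.95, 0.95, 0.95, 0.94 and 0.94 across these arrays, given as a description. Over all 38 arrays r was 0.98, 0.98, 0.95, 0.98 and 0.98 for the same genes.

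**Figure D4:**
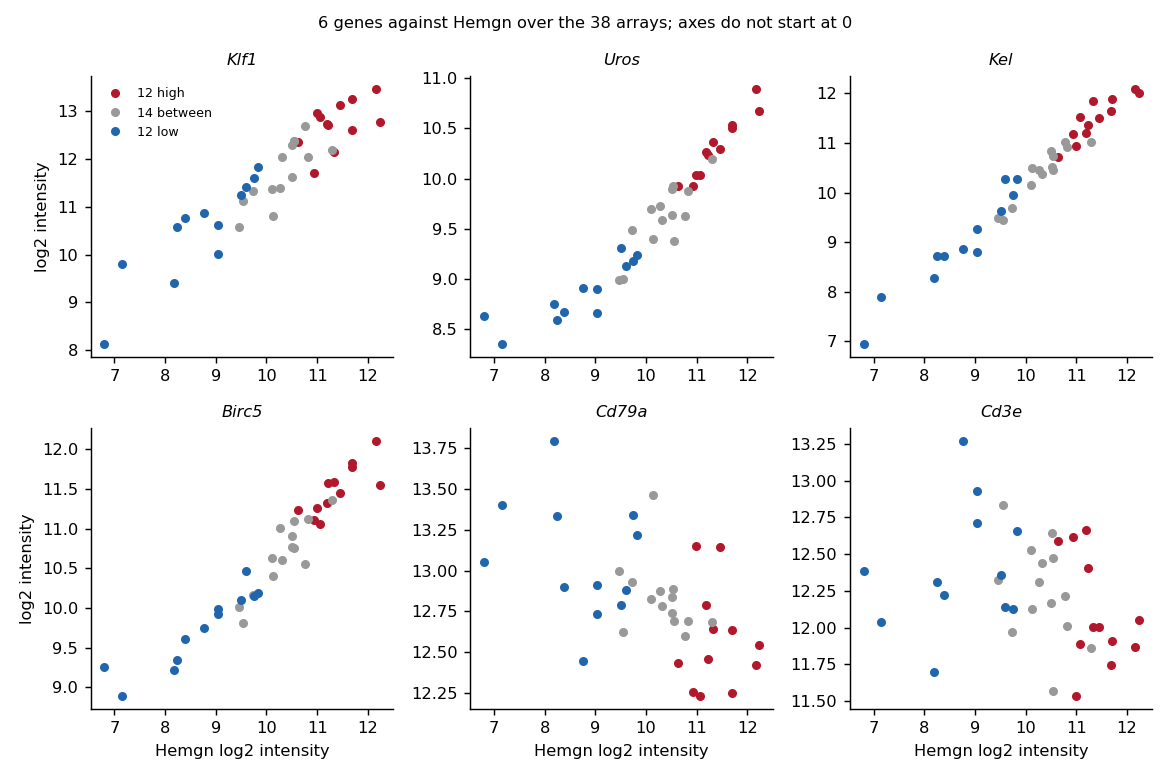
Normalized log2 intensity of 6 genes against that of Hemgn on the 38 arrays, with the 12 high, 14 intermediate and 12 low arrays in different colours. Klf1, Uros, Kel and Birc5 follow Hemgn through the intermediate arrays, with slopes there of 1.01, 0.56, 0.99 and 0.78, while Cd79a and Cd3e scatter widely.

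Flow cytometry traits were available for 11 high and 10 low strains (10 and 10 for CD4+ cells, since the entry of BXD33 was above 100%), as the authors' averages per strain over mice of both sexes, and no trait passed in 7 permutation tests (two-sided, Benjamini-Hochberg adjusted, 0 with an unadjusted p under 0.05). CD3+ T cells had a lowest, median and highest share of 24.5%, 36.2% and 54.9% in the high strains, against 10.3%, 33.5% and 56.1% in the low strains. The means were 38.2% ± 10.1 and 31.1% ± 11.8 (SD), a difference of 7.12 percentage points with a 95% interval from -2.86 to 17.1 (permutation p = 0.15, adjusted p = 0.36). CD79+ B cells averaged 54.2% ± 9.49 in the high strains and 61.4% ± 12.4 in the low strains (SD), a difference of -7.24 with an interval from -17.3 to 2.78 (permutation p = 0.15, adjusted p = 0.36). The natural log of the T to B cell ratio averaged -0.39 ± 0.46 in the high strains and -0.75 ± 0.65 in the low strains (SD, permutation p = 0.16, adjusted p = 0.36). CD4+ and CD8+ shares, the log ratio of CD4+ to CD8+ cells and the log median of MHC class II on B cells differed by 3, 1.11, 0.10 and 0.03, with adjusted permutation p-values of 0.55, 0.75, 0.55 and 0.78. The intervals leave room for differences of several percentage points in either direction for CD4+ and CD8+ cells. Without BXD32 and BXD75 the CD3+ difference was 7.57 (adjusted permutation p = 0.38).

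**Figure D5:**
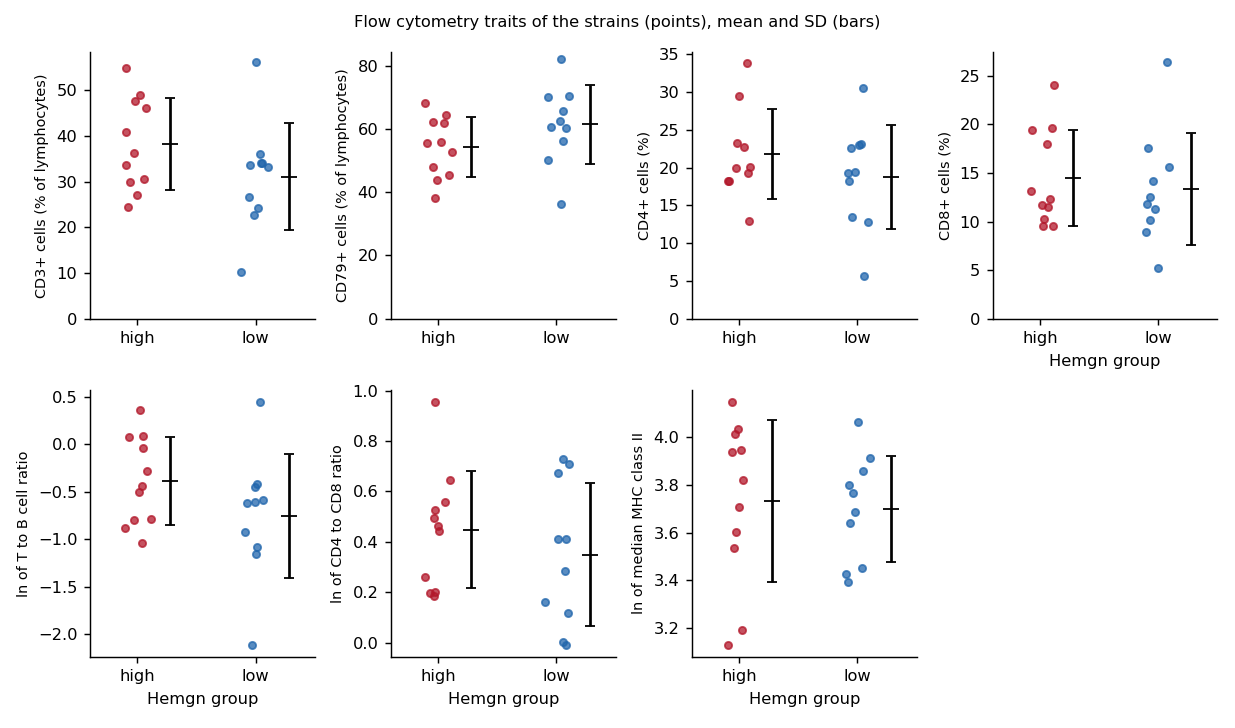
The 7 flow cytometry traits of the strains with high Hemgn (left) and low Hemgn (right), 1 point per strain, with the mean and SD beside the points. Both groups overlap over most of their range in each trait, with CD3+ means of 38.2% and 31.1%.

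Over the 34 phenotyped strains (33 for CD4+ cells) the shares followed Hemgn only weakly, in 7 relations tested. For CD3+ cells Pearson's r was 0.30 (permutation p = 0.080, adjusted p = 0.24) and Spearman's rho 0.33 (permutation p = 0.055, adjusted p = 0.14). Without BXD48 and BXD68, the 2 strains farthest from the median of Hemgn, r was 0.33, and within the 13 phenotyped intermediate strains it was 0.31. For CD79+ cells r was -0.26 (permutation p = 0.14, adjusted p = 0.24) and rho -0.33 (permutation p = 0.062, adjusted p = 0.14), with r of -0.36 without those 2 strains. The other 5 relations had r between 0.08 and 0.30 and adjusted permutation p-values from 0.24 to 0.65. Whether the array pools and the phenotyped mice, which were of the same strains, were the same mice is not given in the sources used here.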

How the data were processed

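Per the file headers, the authors deposited bead-summary intensity values with a detection p-value for each of 34492 probes, with no normalization between arrays. A second set of values deposited by the authors behaves as log2 data, and the submitters' processing notes name lumi. Per the labels, the immune traits deposited by the authors are a percent of lymphocytes or a natural log (LN), and 1 CD4+ entry above 100 was left out. How the detection p-values were made is not given in the sources used here.

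Detection p-values varied among probes of like intensity, so a median over windows of 201 probes, sorted by signal, took their place. The neqc function of limma 3.58.1 under R 4.3.3 then corrected background, added an offset of 16, which shrinks differences of dim probes, and equalised the log2 distributions of the arrays by quantiles; the data.table package, version 1.17.8, read the files. The 17583 probes under 0.01 on at least 3 arrays were kept, covering 11167 genes. GEO's platform annotation named 1 gene for 20256 probes, several for 9 and none for 14227, and 20213 were matched by Entrez identifier to RefSeq's gene list of GRCm38.p6. Each gene is given by its brightest probe.

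Groups were compared with lmFit and eBayes, adjusted by Benjamini-Hochberg over all probes kept except that of Hemgn, at 0.05, and traits with 100000 permutations. The procedure was tested on simulated data. Members, the 20 gene lists and tests were chosen with earlier results of these data known. Genes were named by rule: the markers; per list the 4 called members that differed most, or the 2 brightest where none was called; the 10 largest called differences each way; and the 5 best correlated with Hemgn over the intermediate arrays. Other list members in the text, such as Slc2a1, Gata2, Myb, Alas1, Kit, Elane and Selp, were named after their values were seen. Precision is limited by the number of arrays, and the traits came without errors. Alternatives changed the background step, normalization, filter, ranking, group size, arrays and covariates.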

Additional observations from a re-analysis of the deposited data

How the results depend on the processing

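The count of higher probes stayed between 1136 and 1563, against 1369, except with few arrays of low pancreas signal. Lower probes numbered 845 as reported, against 445 with the 8 highest and 8 lowest arrays, 1309 with a slope on Hemgn over 38 arrays, 1269 with the median deposited intensity as a covariate, 459 without BXD32 and BXD75, and 9 on deposited log2 intensity without normalization, where 1202 were called in all and 1193 were higher. With the 3 high and 6 low arrays of low pancreas signal, 362 were called, 344 higher and 18 lower, with fewer arrays tested. Leaving out 1 of the 24 arrays at a time gave 1783 to 2419 calls, 1222 to 1385 higher and 561 to 1036 lower, the fewest lower without BXD24. Among the intermediate arrays, 263 probes were called on the authors' processed table and 91 without 5 arrays, against 169, and leaving out 1 at a time gave 39 to 194. Except where the construction shows it, the cause was not tested.

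Of 93 named genes, 0 changed direction with a call in any setting; 92 stayed on the same side of the threshold on the authors' processed values, and without BXD32 and BXD75 84 did. Over 18 settings the membrane list had 9 to 15 higher genes, the haem list 4 to 10, the erythroid factors 1 to 10, the cell cycle list 21 to 32, the neutrophil list 0 to 8, and the T cell list 0 to 7 lower genes. No trait passed in any of 6 settings. The comparison of arrays labelled male equals the main one, since all 24 are labelled so. A block by slide was not run, because the file headers name no slide. No paired analysis was possible because each strain has 1 array. The alternatives without normalization, by pancreas signal, without named arrays or the 2 lowest Hemgn arrays and leaving out 1 array, the slopes without 5 arrays, and the list counts without members detected on 0 low arrays were added after seeing the data.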

Other observations

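Few of the genes whose signal fell with Hemgn across the intermediate arrays were also lower in the high Hemgn group. Among the 30 with a negative slope, 2 were also lower between the extremes, a share near that of all genes (5.36%). The median difference of the 30 between the extremes was -0.10. Without the 5 arrays labelled female or against their label the count was 1 of 24, again near that share. The smallest adjusted p-values were those of Slc22a17, a receptor for lipocalin 2 (slope -0.65 ± 0.09 SE, adjusted p = 0.0024), and Cp, the ferroxidase ceruloplasmin (slope -0.52 ± 0.08 SE, adjusted p = 0.0043), while between the high and low groups they differed by 0.14 and -0.03 (adjusted p of 0.39 and 0.85). These genes were chosen after their values were seen.

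The 3 genes whose high arrays all lay below the low arrays were Cyld, a deubiquitinase that restrains NF-kappa-B signalling (mean 11.61 ± 0.13 in the high group and 11.91 ± 0.11 in the low group), Egr3, an immediate early transcription factor (10.55 ± 0.15 and 10.99 ± 0.17), and Stac2 (8.06 ± 0.24 and 8.65 ± 0.29, SD). Their differences were -0.30, -0.44 and -0.59, with adjusted p-values of 6.9e-04, 6.7e-05 and 3.1e-04, and none had a slope that passed in the intermediate arrays.

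Genes near Hemgn, which lies at chr4:46393989-46404183 in GRCm38.p6, were called in 7 of 29 cases within 2 Mb (24.1%) and in 18 of 93 within 10 Mb (19.4%), against 17% on chromosome 4 and 14.8% over all genes. Klrd1, an NK cell receptor, showed the widest gap between levels of the genes examined for it, from 5.09 to 9.90, with 8 high, 10 intermediate and 7 low arrays above it. Of the 1369 higher and 845 lower probes, 247 and 203 have no gene symbol here.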
